A study of Homo sapiens
Mus musculus with 16 samples.

Results

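The mouse genes Krt5, Krt14, Krt1, Krt10, Krt8, Krt18, Epcam, Csn2, Csn3 and Wap, known as markers of skin and mammary epithelium, were followed in xenograft tumours, to describe how much host epithelium each tumour library held. They were chosen by name as marker genes, though with earlier results of these data known. All 10 of 10 are among the 48795 genes of the mouse count matrix. The tumours grew from the triple-negative human breast cancer line MDA-MB-231: each Balb/c nude mouse received 2 M (mega) cells in 50 µl of PBS and Matrigel in a mammary fat pad. Nude mice lack a normal thymus and therefore most T cells. Every tumour was taken on day 50 and gave 1 paired-end mRNA library. Combination mice received nab-paclitaxel, which is the microtubule drug paclitaxel bound to albumin, at 30 mg/kg on days 15, 22 and 29, and phenelzine, a monoamine oxidase inhibitor, at 40 mg/kg daily from day 15. Nab-paclitaxel mice received the first drug alone on the same days, phenelzine mice the second alone from the same day, and vehicle mice neither. All injections were intraperitoneal, and each group had 4 mice. The labels give no age, and none of these groups is a tumour-free mouse, so normal mammary gland or skin was not at hand for scale.

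Keratins are intermediate filament proteins that form obligate pairs of 1 type I and 1 type II chain, and each pair marks a kind of epithelium. The Krt5 and Krt14 pair is made by the basal layer of epidermis and by basal, myoepithelial cells of the mammary gland. The Krt1 and Krt10 pair replaces it when keratinocytes leave the basal layer, and Krt8 with Krt18 is the pair of simple epithelia, which include the luminal cells that line mammary ducts. Epcam is an adhesion molecule on the surface of most simple epithelia. Csn2 and Csn3 encode beta- and kappa-casein, and Wap encodes whey acidic protein, a milk protein of rodents. The milk protein genes are known for their strong induction in late pregnancy and lactation.

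Mouse counts totalled 3.46 to 27.4 M per library and human counts 11.1 to 34.5 M, so mouse genes held 9.25% to 71.2% of all counts. This host share was higher in many libraries with nab-paclitaxel: it was 18.6% to 71.2% in the combination group, 21.1% to 59.7% with nab-paclitaxel, 9.25% to 16.1% with phenelzine and 13.6% to 37.8% with vehicle. Levels are given in CPM, the counts-per-million unit, over mouse counts alone and after TMM scaling, so that a larger host share does not by itself raise them. A set of 4 libraries, nab-paclitaxel 1 and 4 and combination 1 and 3, stood apart on the first principal component of their human genes, at 72.7 to 125 against -56.6 to 5.37 for the other 12. No date or batch is given in the labels.

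Of the pair of the upper epidermis, Krt1 was at or near 0 and Krt10 was low but present. Krt1 (ENSMUSG00000046834) was at 0 in 8 of the 16 libraries and at most at 11 counts in any library. That highest count, in phenelzine 2, came to 1.75 CPM. Krt10 (ENSMUSG00000019761) had counts in every library. In mice 1 to 4 it stood at 2.76, 1.91, 3.58 and 1.39 CPM in combination tumours, 4.59, 2.50, 2.47 and 3.19 CPM in nab-paclitaxel tumours, 0.793, 3.02, 3.21 and 1.43 CPM in phenelzine tumours and 1.46, 1.21, 3.06 and 0.998 CPM in vehicle tumours. All groups overlapped, and the highest library exceeded the lowest only 5.78-fold. Of the keratins listed for skin, Krt1 thus added almost nothing. Krt5 and Krt14 are made in the mammary gland too, and no skin sample was at hand. Whether these levels stand for skin at all, and for how much, therefore cannot be read. Krt5 and Krt14 are called basal keratins, and Krt8, Krt18 and Epcam simple epithelial genes, because Krt5 and Krt14 mark basal cells of both skin and mammary gland.

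Wap and Csn2, milk protein genes like Csn3, were also at or near 0. Wap (ENSMUSG00000000381) had no count in any of the 16 libraries, where 3 counts would allow at most 0.115 CPM in the deepest library and 0.877 CPM in the shallowest. Csn2 (ENSMUSG00000063157) had a count in 4 libraries, which were combination 1, 2 and 3 with 2, 15 and 3 counts and vehicle 2 with 16. Its highest level was 1.02 CPM in vehicle 2. Csn3, in contrast, had counts in all libraries but vehicle 1.

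The basal keratins varied widely between tumours. In mice 1 to 4, Krt5 (ENSMUSG00000061527) was at 23.2, 116, 55.3 and 4.17 CPM in combination tumours, 39.3, 13.5, 16.5 and 3.07 CPM in nab-paclitaxel tumours, 1.32, 6.36, 11.1 and 0 CPM in phenelzine tumours and 0.626, 2.94, 17.1 and 4.99 CPM in vehicle tumours. Combination 2 was the highest of all, and combination 4 lay among the vehicle libraries. Krt14 (ENSMUSG00000045545), the partner of Krt5, was at 10.4, 63.8, 26.8 and 2.01 CPM in combination tumours, 14.0, 4.20, 9.41 and 1.86 CPM in nab-paclitaxel tumours, 1.32, 4.14, 5.55 and 0 CPM in phenelzine tumours and 0, 2.94, 7.20 and 1.40 CPM in vehicle tumours. Its order was much like that of Krt5, and no pair of groups was separated. The Krt5 count was 1 to 3.21 times the Krt14 count in the 10 libraries where both genes had at least 20 counts.

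The simple epithelial genes ranged from absent to abundant. Krt8 (ENSMUSG00000049382) was at 74.4, 279.8, 67.3 and 19.5 CPM in combination tumours, 95.9, 84.6, 83.3 and 15.6 CPM in nab-paclitaxel tumours, 18.8, 37.9, 94.7 and 0 CPM in phenelzine tumours and 0, 34.2, 224 and 35.3 CPM in vehicle tumours. Vehicle 3 stood next below combination 2, so a high level was not limited to tumours with nab-paclitaxel. Krt18 (ENSMUSG00000023043), its partner, was at 86.0, 421, 113 and 21.0 CPM in combination tumours, 129, 83.1, 88.1 and 15.7 CPM in nab-paclitaxel tumours, 12.2, 37.5, 81.2 and 1.43 CPM in phenelzine tumours and 0.835, 27.9, 159 and 25.9 CPM in vehicle tumours. Epcam (ENSMUSG00000045394) was at 51.6, 376, 90.6 and 17.3 CPM in combination tumours, 91.0, 42.6, 59.1 and 8.78 CPM in nab-paclitaxel tumours, 5.55, 17.3, 58.7 and 0 CPM in phenelzine tumours and 4.80, 20.2, 61.2 and 15.0 CPM in vehicle tumours. The same libraries were high and low as for Krt8. Krt8 was listed at 0 in vehicle 1 and phenelzine 4, which held 32.6 and 30.2 M human counts. The part of human reads placed on mouse genes was not tested in any library.

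Csn3 (ENSMUSG00000001622), kappa-casein, shared its upper 8 libraries with the simple epithelial genes, but not their order. Vehicle 3 ranked 2 in Krt8 and 8 in Csn3. Csn2 and Wap were too near 0 for their pattern to be set beside that of Csn3. Csn3 was at 27.3, 143, 47.8 and 8.18 CPM in combination tumours, 72.5, 49.5, 63.5 and 5.71 CPM in nab-paclitaxel tumours, 7.93, 5.09, 30.4 and 0.358 CPM in phenelzine tumours and 0, 8.74, 17.6 and 5.19 CPM in vehicle tumours. Of the 4 nab-paclitaxel tumours, 3 lay above every vehicle tumour, and nab-paclitaxel 4 lay among them.

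**Figure D1:**
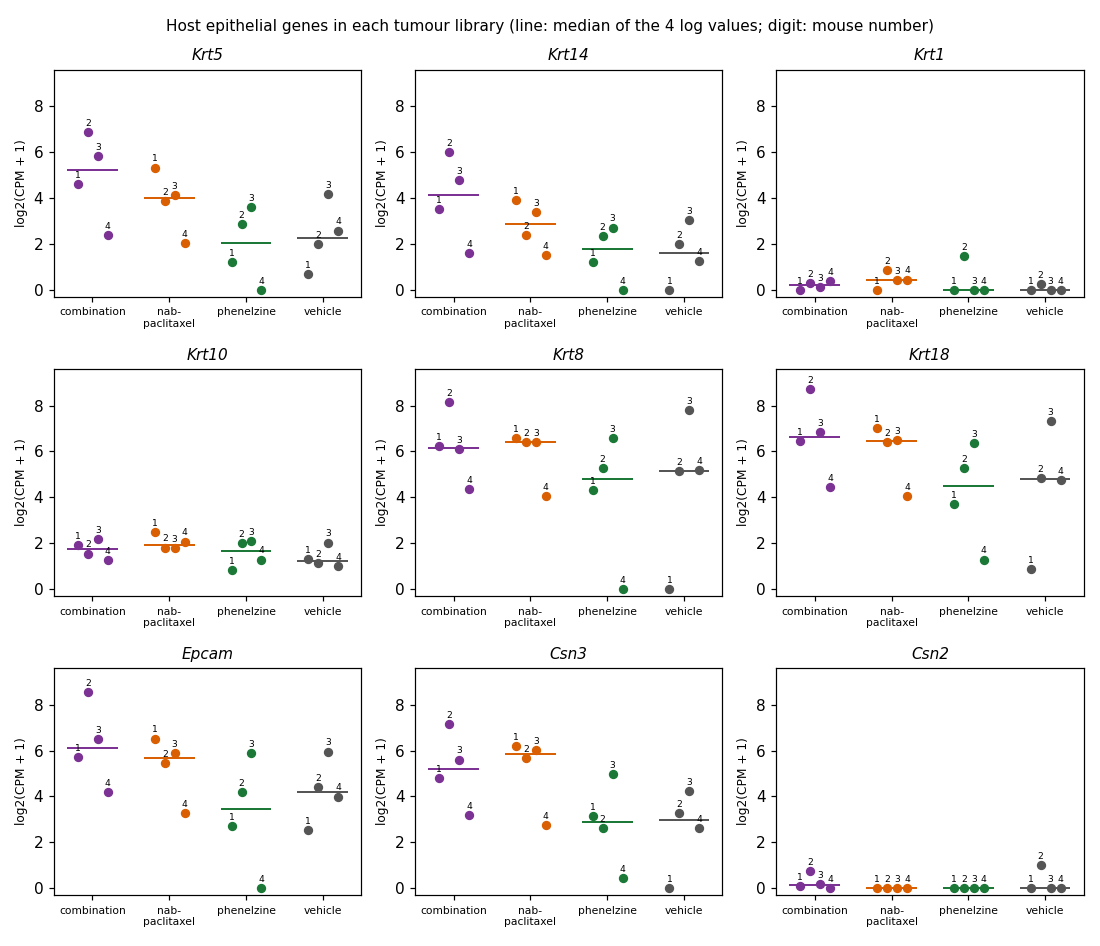
Level of 9 of the genes in each library as log2(CPM + 1), by group, with the mouse number beside each point and a line at the median of the 4 log values; Wap, at 0 in every library, is not drawn. Krt1 and Csn2 lie near 0 and Krt10 is low in all groups, while the other 6 genes run from 0 or near it to 63.8 CPM (Krt14) or up to 421 CPM (Krt18), with combination 2 highest in each.

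The 6 genes Krt5, Krt14, Krt8, Krt18, Epcam and Csn3 divided the tumours in the same way. Combination 2 ranked highest in 6 of 6, and vehicle 1 and phenelzine 4 were the 2 lowest libraries in 6 of 6. For each of them the upper 8 of the 16 libraries were the same 8, namely combination 1, 2 and 3, nab-paclitaxel 1, 2 and 3, phenelzine 3 and vehicle 3. The step between the upper and the lower 8 was 67.3 against 37.9 CPM in Krt8 but only 4.20 against 4.14 CPM in Krt14. Krt10 shared 6 of these 8 libraries in its own upper 8, and combination 2 ranked 10 in it. The libraries that stood apart by their human genes were divided here, since nab-paclitaxel 4 was in the lower 8 and the other 3 were in the upper 8. Combination 3, nab-paclitaxel 1 and combination 1 ranked 2, 3 and 4 in both Krt5 and Krt14, and nab-paclitaxel 4 ranked 12. In Krt8 the same libraries ranked 8, 3, 7 and 14, and in Krt10 2, 1, 7 and 4. In whole-tumour RNA, fewer epithelial cells and less of these RNAs per cell cannot be told apart.

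**Figure D2:**
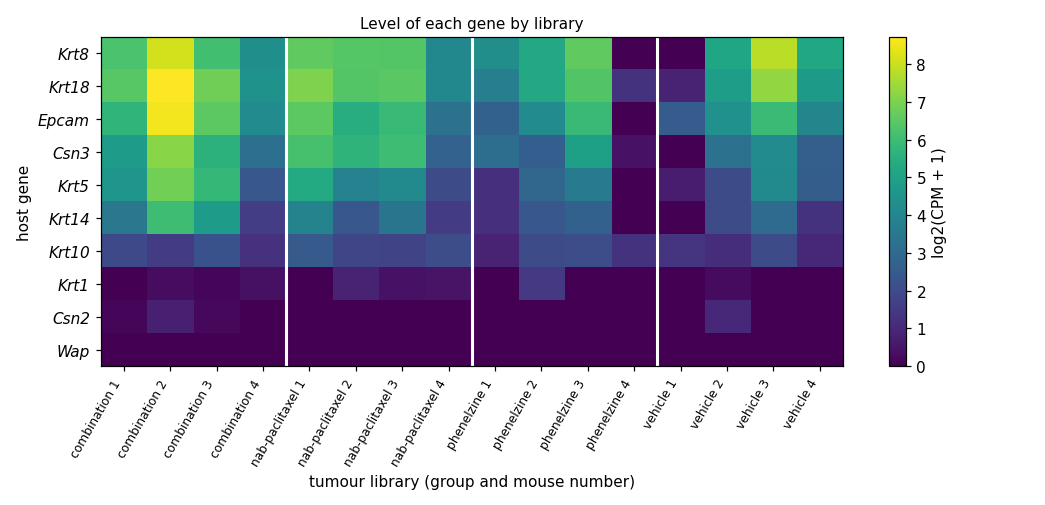
Colour gives log2(CPM + 1) of each of the 10 host genes, in rows, in each of the 16 libraries, in columns by group and mouse number. The upper 6 rows share their bright and dark columns, with combination 2 brightest and phenelzine 4 and vehicle 1 darkest, while Krt10 stays dim throughout and Krt1, Csn2 and Wap are at or near 0.

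Summed levels give what these genes took of the mouse RNA counts of each tumour after TMM scaling, in which a long gene weighs more than a short one. The sum of Krt8, Krt18 and Epcam was 212, 1077, 271 and 57.7 CPM in combination tumours 1 to 4, a mean of 404 ± 457 (SD, n = 4). It was 316, 210.3, 230.5 and 40.1 CPM in nab-paclitaxel tumours, a mean of 199 ± 115, then 36.5, 92.8, 235 and 1.43 CPM in phenelzine tumours, a mean of 91.3 ± 103, and 5.64, 82.3, 444 and 76.2 CPM in vehicle tumours, a mean of 152 ± 198. The SD exceeded the mean in all groups but nab-paclitaxel, and the ranges of all 4 groups overlapped. Within vehicle tumours alone the highest sum was 78.8 times the lowest. The combination mean was 2.66 times the vehicle mean, but 1.19 times without combination 2 and 7.39 times without vehicle 3.

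The sum of Krt5, Krt14, Krt1 and Krt10 averaged 77.8 ± 76.2 CPM in combination tumours, 29.0 ± 20.9 with nab-paclitaxel, 10.0 ± 8.98 with phenelzine and 11.0 ± 11.2 with vehicle (SD, n = 4 each). Of its pooled counts, Krt1 and Krt10 gave 3.08% in combination tumours, 11.5% with nab-paclitaxel, 28.1% with phenelzine and 15.9% with vehicle. Combination 2 held 3890 of the 6658 combination counts. By library the share was 1.18% to 21.6% in combination tumours, 7.93% to 41.8% with nab-paclitaxel, 16.2% to 100% with phenelzine and 11.2% to 70.0% with vehicle. It exceeded that of Krt5 and Krt14 in vehicle 1 and phenelzine 4, which had only 10 and 8 counts of the 4 genes. The milk protein sum, nearly all Csn3, averaged 56.8 ± 60.2, 47.8 ± 29.6, 10.9 ± 13.3 and 8.14 ± 7.47 CPM in the same order of groups. No test was made of these sums.

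Counted against all RNA of the tumour, mouse and human, the groups lay further apart, since the host share enters this measure. The sum of Krt8, Krt18 and Epcam was 144, 563, 154 and 10.6 CPM of both species together in combination tumours 1 to 4, 192, 49.3, 48.4 and 16.3 in nab-paclitaxel tumours, 3.60, 14.4, 21.5 and 0.222 in phenelzine tumours and 0.714, 33.9, 86.2 and 9.86 in vehicle tumours. The combination mean was 6.67 times the vehicle mean on this scale, 3.15 times without combination 2 and 14.7 times without vehicle 3. Single tumours still went against their group: combination 4 was below 2 of the 4 vehicle tumours.

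**Figure D3:**
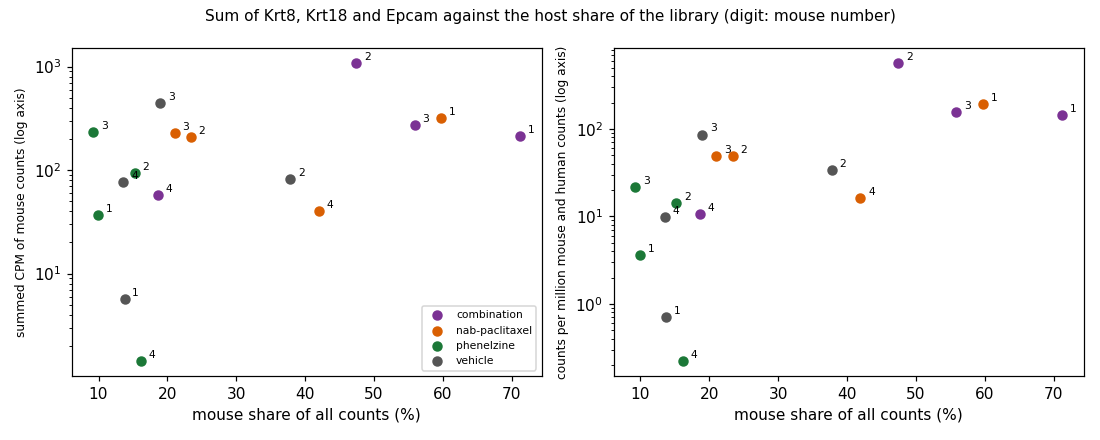
Sum of Krt8, Krt18 and Epcam in each library, in CPM of mouse counts (left) and in CPM of mouse and human counts together (right), both on log axes, against the mouse share of all counts in percent; colours are groups and digits mouse numbers. On the left, libraries with shares of 9.25% to 19.0% span 1.43 to 444 CPM; on the right, the 4 libraries with the highest counts are combination 2, nab-paclitaxel 1 and combination 3 and 1.

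The combination was set against vehicle to ask what both drugs together did to the host epithelium in the tumour. Of the 10 genes, 7, all but Krt1, Csn2 and Wap, passed the filter on low counts and entered edgeR's quasi-likelihood test with the other mouse genes. The p-values were adjusted by the Benjamini-Hochberg method over all 15074 genes, with a threshold of 0.05. None of the 7 passed it, against 0.0332% of all genes tested (3 higher and 2 lower); 3 of the 7 had an unadjusted p under 0.05, as did 13.7% of all genes. Krt14 had the largest estimate, a log2 fold change of 3.12 (SE 1.13, 95% interval 0.70 to 5.54, edgeR adjusted p = 0.288). That of Krt5 was 2.95 (SE 1.15, 0.50 to 5.40, edgeR adjusted p = 0.304) and that of Csn3 2.82 (SE 1.15, 0.37 to 5.27, edgeR adjusted p = 0.318). Krt8 differed far less, with 0.59 and an interval of -2.12 to 3.30. These estimates moved with single tumours: without combination 2 the log2 fold change of Krt5 was 2.12, of Krt14 2.18, of Csn3 1.82, of Epcam 1.09 and of Krt8 -0.43. Without vehicle 3 those of Krt8 and Krt18 were 2.24 and 3.13. The libraries of both groups overlapped in 7 of 7 genes, whereas 5.27% of all genes showed no overlap.

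Nab-paclitaxel alone against vehicle asks the same of the taxane. None of the 7 genes passed (0% of all genes did), and 1 of 7 had an unadjusted p under 0.05, against 11.9% of all genes. That gene was Csn3, at 47.8 ± 29.6 CPM with nab-paclitaxel and 7.88 ± 7.41 CPM with vehicle (SD, n = 4 each), and its log2 fold change was 2.57 (SE 1.14, 95% interval 0.14 to 5.01, edgeR adjusted p = 0.396). Krt8 averaged 69.8 ± 36.6 and 73.4 ± 102 CPM, a log2 fold change of -0.07 with an interval of -2.78 to 2.63, which allows a change of over 4-fold in either direction. Without vehicle 3 its estimate was 1.60. In no gene of the 7 were the libraries of both groups separated, against 5.61% of all genes.

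Phenelzine alone against vehicle asks what the monoamine oxidase inhibitor did. None of the 7 genes passed (0% of all genes did) and none had an unadjusted p under 0.05, against 6.11% of all genes. Estimates lay between -0.97 for Krt8 (95% interval -3.73 to 1.80) and 0.40 for Csn3 (-2.04 to 2.83). Krt5 averaged 4.70 ± 5.08 CPM with phenelzine and 6.42 ± 7.37 CPM with vehicle (SD, n = 4 each). Of the 7 estimates, 2 were above 0 and 5 below, while 45.2% of all genes had estimates above 0. Without vehicle 3 the estimates of Krt5, Krt14, Krt8, Krt18 and Epcam were 0.69, 0.77, 0.69, 0.84 and 0.58. Libraries were separated in 0 of 7 genes and in 2.02% of all genes.

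The combination against each single drug asks what the second drug added. Against phenelzine, 0 of 7 genes passed, with 0.00663% of all genes called, and 3 had an unadjusted p under 0.05, against 18.1% of all genes. Krt5, at 49.5 ± 48.8 CPM in combination tumours and 4.70 ± 5.08 CPM in phenelzine tumours (n = 4 each, SD), had a log2 fold change of 3.44 (SE 1.20, 95% interval 0.88 to 5.99, edgeR adjusted p = 0.192). Without combination 2 the estimate was 2.60. Combination 4 overlapped the phenelzine libraries, and separation occurred in 0 of 7 genes and 11.2% of all genes. Against nab-paclitaxel, 0 of 7 passed, with 0.0199% of all genes called. None of the 7 had an unadjusted p under 0.05, against 5.53% of all genes. Krt14 had the largest estimate, 1.81 (SE 1.05, 95% interval -0.44 to 4.05, edgeR adjusted p = 0.851). Without combination 2 its estimate was 0.84, and those of Krt8, Krt18 and Csn3 were -0.37, -0.10 and -0.77. Separation occurred in 0 of 7 genes and 3.87% of all genes.

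Averaged over both states of phenelzine, 8 libraries with nab-paclitaxel were set against 8 without. None of the 7 genes passed, with 0.796% of all genes called, and 4 had an unadjusted p under 0.05, against 20.7% of all genes. Csn3 had a log2 fold change of 2.50 (SE 0.81, 95% interval 0.77 to 4.22, edgeR adjusted p = 0.111), Krt5 one of 2.46 (SE 0.81, edgeR adjusted p = 0.115) and Krt14 one of 2.28 (SE 0.80, edgeR adjusted p = 0.131). Krt8 had 0.74 (SE 0.90, edgeR adjusted p = 0.675). Without combination 2 the estimates of Csn3, Krt5, Krt14 and Krt8 were 2.00, 2.05, 1.81 and 0.24. Without vehicle 3 those of Krt5 and Krt8 were 3.06 and 1.58, and without phenelzine 3 that of Csn3 was 3.14. DESeq2 gave Krt14 an adjusted p of 0.0461 at a log2 fold change of 2.30 and called none of the other 6, with 7.04% of its genes called; over all alternatives the adjusted p of Krt14 was 0.0461 to 0.846. With the mouse share of the library as a covariate, the log2 fold changes of Krt5, Krt14 and Csn3 were 1.60, 1.37 and 2.35, and edgeR's adjusted p-values 0.833, 0.846 and 0.739.

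The average effect of phenelzine gave 0 of 7 genes, with 0.0265% of all genes called, and estimates between -0.15 (Krt8) and 0.84 (Krt14). The interaction, which asks whether the effect of both drugs differed from the sum of each on the log scale, gave 0 of 7 genes and 0% of all genes. Its estimates reached 1.94 for Krt5 with a 95% interval of -1.42 to 5.30, and that estimate was 0.75 without vehicle 3 and 2.70 without phenelzine 3.

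**Figure D4:**
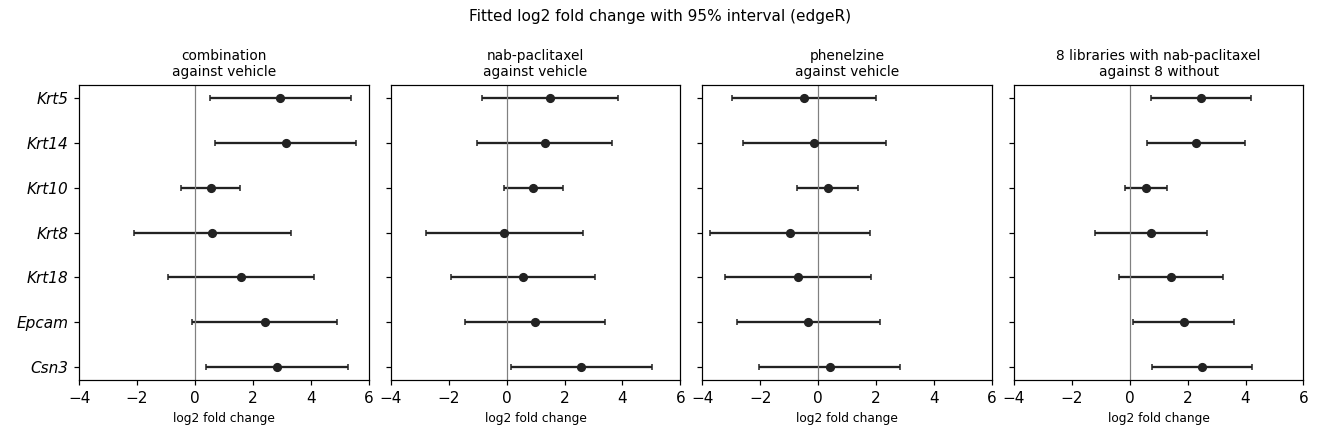
Fitted log2 fold change of the 7 genes tested, with the 95% interval from edgeR, in 4 comparisons whose titles give the group on top first. Intervals span several log2 units for all genes but Krt10, and in the combination against vehicle those of Krt5, Krt14 and Csn3 lie above 0, although no gene passed the adjusted threshold.

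These intervals are wide, and the genes varied widely between mice of a group. The part of low counts in the width was not tested. In the combination against vehicle the median standard error of the 7 genes was 1.15 on the log2 scale, against 0.28 over all 15074 genes. Krt10, which varied least between libraries, had a standard error of 0.47. Each of the 7 estimates of the combination against vehicle was above 0, as were 46.2% of all genes. Their median was 2.40, against -0.03 over all genes. The 7 genes were measured in the same 8 tumours, so their estimates are not 7 separate observations.

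Ratios between the counts of 2 genes of a library do not depend on scaling, and were set side by side for libraries with at least 20 counts of both genes. Vehicle 1 and phenelzine 4 had too few counts for any ratio, and phenelzine 1 too few for Krt5. The ratio of Krt18 to Krt8 counts was 1.16, 1.51, 1.68 and 1.08 in combination tumours, 1.34, 0.982, 1.06 and 1.004 in nab-paclitaxel tumours, 0.648, 0.992 and 0.858 in phenelzine tumours 1 to 3 and 0.815, 0.710 and 0.734 in vehicle tumours 2 to 4. All 4 combination and all 4 nab-paclitaxel ratios were above the 3 vehicle ratios, and phenelzine 2 overlapped nab-paclitaxel 2.

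Krt5 per Krt8 count was 0.311, 0.413, 0.822 and 0.214 in combination tumours, 0.409, 0.160, 0.198 and 0.196 in nab-paclitaxel tumours, 0.168 and 0.117 in phenelzine tumours 2 and 3, and 0.0858, 0.0766 and 0.141 in vehicle tumours 2 to 4. Again each library with nab-paclitaxel was above each of the 3 vehicle libraries that had a ratio, and phenelzine 2 lay above nab-paclitaxel 2. Csn3 per Krt8 count averaged 0.502 ± 0.151 in combination tumours (n = 4), 0.617 ± 0.187 with nab-paclitaxel (n = 4), 0.293 ± 0.146 with phenelzine (n = 3) and 0.160 ± 0.0893 with vehicle (n = 3, SD). Epcam per Krt8 count averaged 1.07 ± 0.330, 0.681 ± 0.199, 0.458 ± 0.162 and 0.430 ± 0.159 in the same groups, and nab-paclitaxel 2 and 4 lay below vehicle 2. The Csn3 ratio of phenelzine 1, at 0.423, lay above those of combination 1 and 4 and nab-paclitaxel 4. All 4 ratios have Krt8 as their base and are therefore not independent of each other. They were chosen after the values were seen, and no test was made of them. How many other gene pairs would separate the groups in this way was not counted, so no chance level stands beside these ratios. The host share was also higher in many of the libraries with nab-paclitaxel, and its part in the ratios was not tested. Combination 1, nab-paclitaxel 1, combination 3 and combination 2 had the highest shares, 71.2%, 59.7%, 55.9% and 47.4%. Their Krt18 to Krt8 ratios, 1.16, 1.34, 1.68 and 1.51, were also the highest, as were their Krt5 to Krt8 ratios. Nab-paclitaxel 4 and vehicle 2, with shares of 41.9% and 37.8%, had Krt18 to Krt8 ratios of 1.004 and 0.815. Combination 4, with a share of 18.6%, had 1.08.

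**Figure D5:**
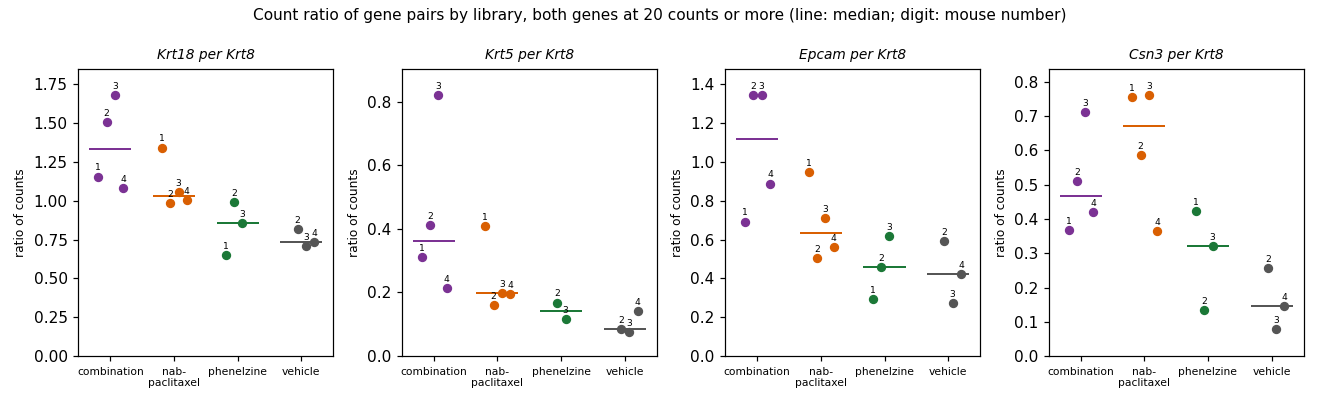
Ratio of the counts of Krt18, Krt5, Epcam and Csn3 to those of Krt8 in each library with at least 20 counts of both genes, by group, with the mouse number beside each point and a line at the median. For Krt18, Krt5 and Csn3 all 8 libraries with nab-paclitaxel lie above the 3 vehicle libraries drawn, but not above all phenelzine libraries. For Epcam the libraries with nab-paclitaxel and with vehicle overlap.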

How the data were processed

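RNA of 16 xenograft tumours, 4 per group, was read as whole-number counts per Ensembl gene, deposited by the authors as a human and a mouse matrix with no normalization. The submitters' processing notes name Trimmomatic 0.36, HISAT2 2.04, Picard, StringTie, edgeR, hg38 and mm10, with neither order nor role. The division of reads between the species and the use of strand: not given in the sources used here. Limits from 3 counts cover counting error only. The files pair no ID with a symbol. Symbols of the 10 genes came with their list, and other lists, markers and genes of like pattern could not be looked up. Members and lists were chosen with earlier results of these data known; the rule for named genes was to give all 10. The mouse matrix was fitted in R 4.3.3 by edgeR 4.0.16, with TMM factors of 0.921 to 1.106, its default low-count filter (minimum count of 10), 1 mean per group over all 16 libraries, quasi-likelihood F test, Benjamini-Hochberg adjustment across all genes, threshold 0.05. Each standard error is the log2 fold change divided by the root of its F. With 1 library per mouse, p-values reflect variation among mice. The test was tried on simulated data, with changed genes drawn at random from all genes tested. Its power for the genes followed here was not measured. Alternatives were DESeq2 1.42.0, RLE factors, no filter, fits of the groups compared only, a replicate block, the host share as covariate, and libraries left out. CPM of a library is scaled by its TMM factor.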

Additional observations from a re-analysis of the deposited data

Results flagged for a closer look

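In all, 34 sets of 4 libraries were checked, each 1 gene in 1 group with differing values. Of these, 5 held a library far from the other 3 by the gap-to-range criterion. Its chance rate of about 1 in 20 is meant for normally distributed values, which was not checked here. A set with 3 libraries at 0 and 1 above 0 always meets the criterion, as in the Krt1 and Csn2 sets below. For Krt8, vehicle 3 was high at 224 CPM, and nab-paclitaxel 4 was low at 15.6 CPM. For Krt1, phenelzine 2 was high at 1.75 CPM and vehicle 2 at 0.191 CPM, which are 11 and 3 counts beside other libraries at 0. For Csn2, vehicle 2 was high at 1.02 CPM, or 16 counts, beside other vehicle libraries at 0.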

How the results depend on the processing

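Leaving out 1 library at a time gave 896 estimates for the 56 pairs of gene and comparison, of which 855 kept their direction and 41 reversed, and no such fit called a gene. The other alternatives gave 370 estimates, of which 357 kept their direction and 13 reversed. The one change of call was DESeq2's average nab-paclitaxel effect, with 1 gene called (Krt14, adjusted p 0.0461) against 0 in edgeR. The cause was not tested. CPM of both species together adds human counts to the base, so the means of all groups were lower than in mouse CPM. For Krt8, Krt18 and Epcam together the mean was 218 against 404 in combination tumours and 76.6 against 199 with nab-paclitaxel. It was 9.92 against 91.3 with phenelzine and 32.7 against 152 with vehicle. The milk gene means were also lower in every group, with nab-paclitaxel at 17.9 against 47.8. With the replicate block, reversed log2 fold changes were 0.17 for Krt8 in nab-paclitaxel against vehicle, -0.014 for Csn3 in phenelzine against vehicle, -0.26 and -0.053 for Krt18 and Epcam in the average phenelzine effect, and 0.11 for Csn3 in the interaction. With the mouse share as covariate they were 0.40 for Krt14 in phenelzine against vehicle, and for Krt10 -0.58 in the combination against phenelzine, -0.0083 in the average nab-paclitaxel effect and 0.013 in that of phenelzine. Without the 4 libraries that stood apart they were 0.18 for Krt8 in nab-paclitaxel against vehicle, -0.0015 and -0.32 for Krt10 in the combination against vehicle and against phenelzine, and 0.059 for Csn3 in the interaction.

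Over single libraries left out, estimates that crossed 0 ranged as follows. In the average phenelzine effect, Csn3 ranged from -0.32 to 0.67, Epcam from -0.15 to 0.99, Krt10 from -0.16 to 0.21, Krt18 from -0.40 to 0.93 and Krt8 from -0.67 to 0.67. In the combination against nab-paclitaxel, Csn3 ranged from -0.77 to 0.59, Krt18 from -0.10 to 1.37 and Krt8 from -0.37 to 0.99. Krt10 ranged from -0.056 to 0.45 in the combination against phenelzine. Krt8 ranged from -0.43 to 2.24 in the combination against vehicle and from -0.48 to 1.60 in nab-paclitaxel against vehicle. In phenelzine against vehicle, Csn3 ranged from -0.88 to 1.12, Epcam from -1.70 to 0.58, Krt14 from -0.64 to 0.77, Krt18 from -1.63 to 0.84, Krt5 from -1.26 to 0.69 and Krt8 from -1.95 to 0.69. In the interaction, Csn3 ranged from -1.19 to 1.11 and Krt8 from -0.049 to 2.60.

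The labels give no shared source for mice of the same number in different groups. The correlation of their deviations over 24 pairs had a median of 0.0972 (-0.172 to 0.306), with 11 pairs over 0.1, against a median of -0.009 over 72 pairs of different number. The block on it called 0 of the 7 genes in every comparison, and 107 against 120 genes of all in the average nab-paclitaxel effect. Fits of only the groups compared were not made for the averages and the interaction, which need all groups. Depth limits Krt1 and Csn2, whose counts were at most 11 and 16 in any library.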
